A study of Homo sapiens with 6 samples.

Results

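The corepressors and partner enzymes through which the zinc-finger protein SNAI1 is known to act were examined at the mRNA level, as 10 genes chosen by symbol: *KDM1A*, *RCOR1*, *HDAC1*, *HDAC2*, *SIN3A*, *EZH2*, *SUZ12*, *EED*, *EHMT2* and *LOXL2*. All 10 were found among the 37803 symbols listed once in both deposited tables, and all 10 passed the filter on low values, which asked for a mean of 1 FPKM or more. The RNA came from H1, an established line of human embryonic stem cells, taken at day 2 of hematopoietic differentiation. The medium held 40 ng/ml of activin A and 50 ng/ml of BMP4 per the labels, doses that the methods of the study give reversed. The groups were unedited H1 cells (WT, n = 2) and cells with SNAI1 deleted, labelled SNAI1_KO_1 (n = 2) and SNAI1_KO_2 (n = 2). The study made its knockout lines with CRISPR/Cas9, by frameshift mutations in the cell line itself, and reports 2 lines for each gene it targeted. The labels do not match the knockout groups to these lines. They also do not say whether a group is 1 clone or whether its libraries came from separate cultures. P-values therefore measure only the spread between these libraries. Each of the 2 tables holds 1 library of every group. They were normalized separately and differ in length, with 38100 and 58324 rows, so they do not list the same set of genes. Knockout and WT libraries were therefore compared within a table.

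SNAI1 is a repressor. Its zinc fingers bind E-box elements in DNA, and a short amino-terminal stretch, the SNAG domain, resembles the tail of histone H3 and is bound by the demethylase LSD1 (encoded by *KDM1A*) together with the scaffold CoREST (*RCOR1*). Other partners described for SNAI1 are the histone deacetylases HDAC1 and HDAC2 with the scaffold SIN3A, the Polycomb repressive complex PRC2 (EZH2, SUZ12 and EED), which methylates H3K27, the H3K9 methyltransferase G9a (*EHMT2*), and LOXL2, a lysyl oxidase family member. In embryonic stem cells most of these proteins serve many transcription factors besides SNAI1.

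SNAI1 mRNA was present in every library, at 37.1 FPKM (first table) and 36.4 FPKM (second table) in WT and at 47.8 to 68.6 FPKM in the 4 knockout libraries. It was called higher by limma over both knockout groups (log2 0.58, adjusted p = 0.00461). Under other settings of the fit its adjusted p reached 0.0761. A frameshift can leave the mRNA in place, so this level does not check the labels, and each direction is that of the libraries as labelled. FPKM summed to between 603399 and 633851 per library, and absolute depth is unknown. Relative to WT of the same table, estimated depth of the knockout libraries was 0.966 and 0.877 in the first table against 1.09 and 1.11 in the second, so depth did not stand on the same side of WT in both. In the WT libraries 9 mesoderm markers summed to 1776 and 1725 FPKM, among them *APLNR*, a mesoderm surface receptor, at 621.2 and 572.7. A pluripotency marker was high as well: *POU5F1*, which encodes OCT4, was at 484.8 and 629.9 FPKM. The pluripotency factor *SOX2* was under 1 FPKM in both WT libraries, at 0.281 and 0.834.

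Because SNAI1 binds E-boxes, the 250 bases before the annotated start were read for the 3 members called lower than WT (*KDM1A*, *EED* and *EHMT2*) and for *LOXL3*, shown because it was the paralog that rose. The sequences are those of RefSeq on GRCh38.p14, written in the direction of the gene, with capitals for each match of CANNTG, the general E-box, whose letters read the same on both strands. The windows are KDM1A chr1:23019218-23019467 (plus strand), EED chr11:86244503-86244752 (plus strand), EHMT2 chr6:31897699-31897948 (minus strand) and, for LOXL3, chr2:74549527-74549776 (minus strand). The LOXL3 window lies before the downstream of 2 annotated starts, and thus inside the span of the longer transcripts.
KDM1A: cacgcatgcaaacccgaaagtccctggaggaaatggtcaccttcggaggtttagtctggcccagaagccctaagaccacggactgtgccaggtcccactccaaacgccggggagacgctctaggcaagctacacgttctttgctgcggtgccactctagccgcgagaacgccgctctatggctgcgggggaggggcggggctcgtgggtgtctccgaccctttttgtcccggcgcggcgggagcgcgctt
EED: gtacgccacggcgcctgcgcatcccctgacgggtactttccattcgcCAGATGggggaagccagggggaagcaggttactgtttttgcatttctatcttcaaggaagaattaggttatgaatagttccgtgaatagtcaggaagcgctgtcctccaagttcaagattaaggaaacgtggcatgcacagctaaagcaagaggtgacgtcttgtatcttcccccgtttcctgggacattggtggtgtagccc
EHMT2: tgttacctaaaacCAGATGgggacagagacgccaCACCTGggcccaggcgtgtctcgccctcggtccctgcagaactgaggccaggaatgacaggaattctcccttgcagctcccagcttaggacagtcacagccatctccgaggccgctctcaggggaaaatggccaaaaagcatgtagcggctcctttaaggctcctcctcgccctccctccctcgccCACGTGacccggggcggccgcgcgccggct
LOXL3: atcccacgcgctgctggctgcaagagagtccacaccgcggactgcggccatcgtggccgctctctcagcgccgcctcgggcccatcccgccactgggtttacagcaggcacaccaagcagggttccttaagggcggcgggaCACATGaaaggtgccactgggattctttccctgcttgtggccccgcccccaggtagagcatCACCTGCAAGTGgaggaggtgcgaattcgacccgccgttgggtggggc

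CACCTG, the E-box form that SNAI1 is known to prefer, or its reverse complement CAGGTG, stood in the EHMT2 window with its first base at -216 from the start, and in the printed LOXL3 window at -48. The other LOXL3 window, before the upstream start (chr2:74553943-74554192), held no CANNTG. Of the 9 members with a window read, EHMT2 was the 1 that held CACCTG or CAGGTG. Among the 11 paralogs with a window read, 1 of these forms stood in 3, LOX, LOXL3 and LOXL4. Of all 35116 windows of the same length, 17.5% held CACCTG or CAGGTG and 61.8% held CANNTG, a count that includes the former. The KDM1A window held no CANNTG and the EED window held 1. No window of LOXL2 or RCOR2 was read. A match in these letters is a description and no measure of binding.

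In WT cells the 10 mRNAs spanned from 8.53 to 265.6 FPKM, a scale that is corrected for transcript length and can be set side by side between genes. *HDAC2* stood first, at 265.6 and 200.7 FPKM in the first and second table, followed by *KDM1A* at 106.0 and 91.8 and *HDAC1* at 69.3 and 73.4. *EHMT2* was at 27.1 and 33.7, *EZH2* at 26.2 and 26.5, and *SIN3A* at 25.8 and 25.2. *EED* (16.6 and 13.5), *SUZ12* (12.6 and 10.8) and *RCOR1* (9.34 and 8.53) closed the order. Ranked by mean WT level among the 13909 genes tested, these members ran from the 97.5th percentile for *HDAC2* and the 93.4th for *KDM1A* to the 53.8th for *SUZ12* and the 46.8th for *RCOR1*. The order of these 9 genes was the same in both tables and none of their pairs of WT values overlapped, although with 2 libraries the order was not tested. *LOXL2* had no fixed place: its WT level was 19.8 FPKM in the first table and 52.5 in the second, 2.65 times higher, and overlapped the range of *EHMT2*, *EZH2* and *SIN3A*.

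**Figure D1:**
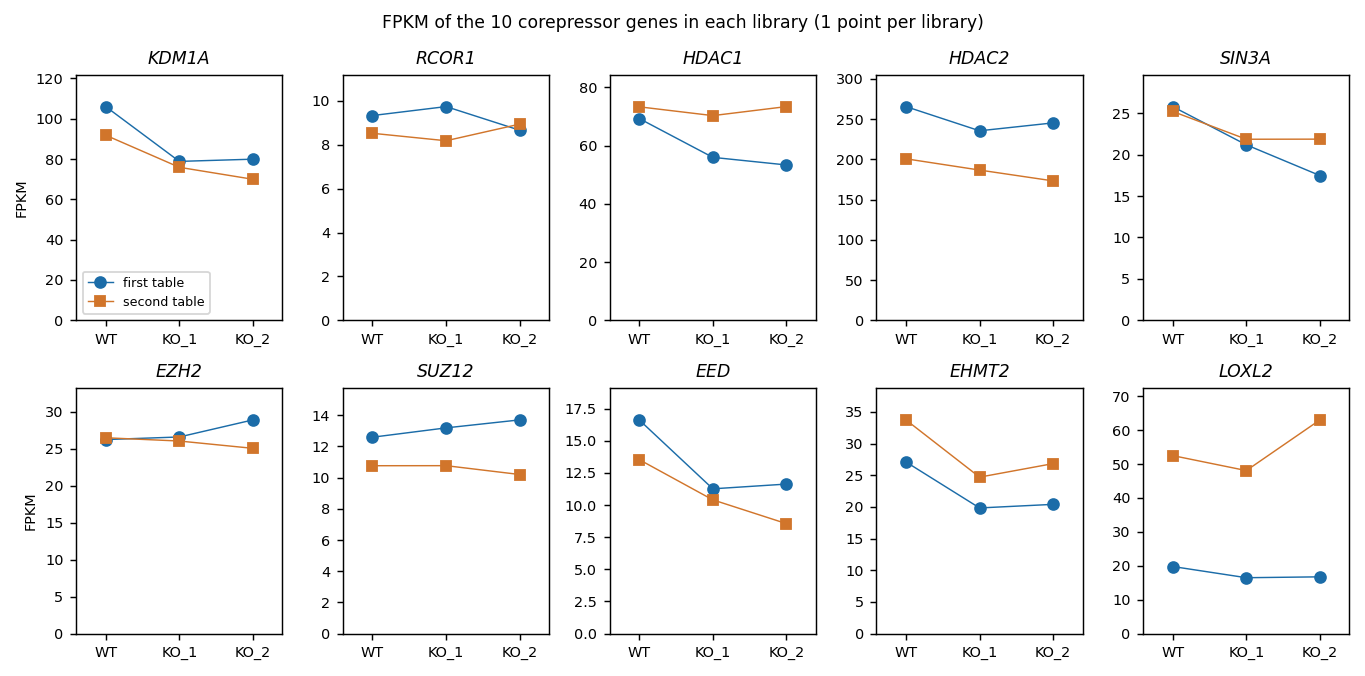
FPKM (vertical axis, from 0, with its own scale in each panel) of the 10 corepressor genes in the WT, SNAI1_KO_1 and SNAI1_KO_2 library of the first table (blue circles) and the second table (orange squares), 1 point per library. The knockout points of *KDM1A*, *SIN3A*, *EED* and *EHMT2* lie below both WT points in all 4 knockout libraries, whereas those of *RCOR1*, *EZH2* and *SUZ12* scatter around WT.

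With SNAI1 deleted, 3 of the 10 members fell and none rose. *EED*, the PRC2 subunit that reads methylated H3K27, had a log2 difference of -0.49 ± 0.092 (SE), *EHMT2* one of -0.39 ± 0.061 and *KDM1A* one of -0.37 ± 0.055, for the average of the knockout groups relative to WT, on log2(FPKM + 1). Their 95% confidence intervals overlap, and with a pseudocount of 10 the values were -0.29, -0.30 and -0.34, so the order of the 3 depends on the scale. This count has to be read against the background, since 31.3% of the 13909 genes tested were called in this comparison, 15.4% of them lower and 15.8% higher. The share of members called, 30%, was near that background, and it is therefore no result about the members as a list. Their median difference was -0.17, beside -0.05 over all genes tested. Members below both WT libraries in all 4 knockout libraries numbered 4, for which the background was 17.1%, and members above both numbered 0, beside a background of 16.9%; on 1 side or the other of both WT libraries the background was 34%. Within tables, 5 members were lower than WT in all 4 differences, where the background was 35.1%. Taken alone, each knockout group called the same 3 genes, *KDM1A*, *EED* and *EHMT2*, against backgrounds of 23.9% for SNAI1_KO_1 and 25.5% for SNAI1_KO_2. These contrasts share the WT libraries. In bulk RNA, fewer cells of a type and less RNA per cell cannot be told apart.

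**Figure D2:**
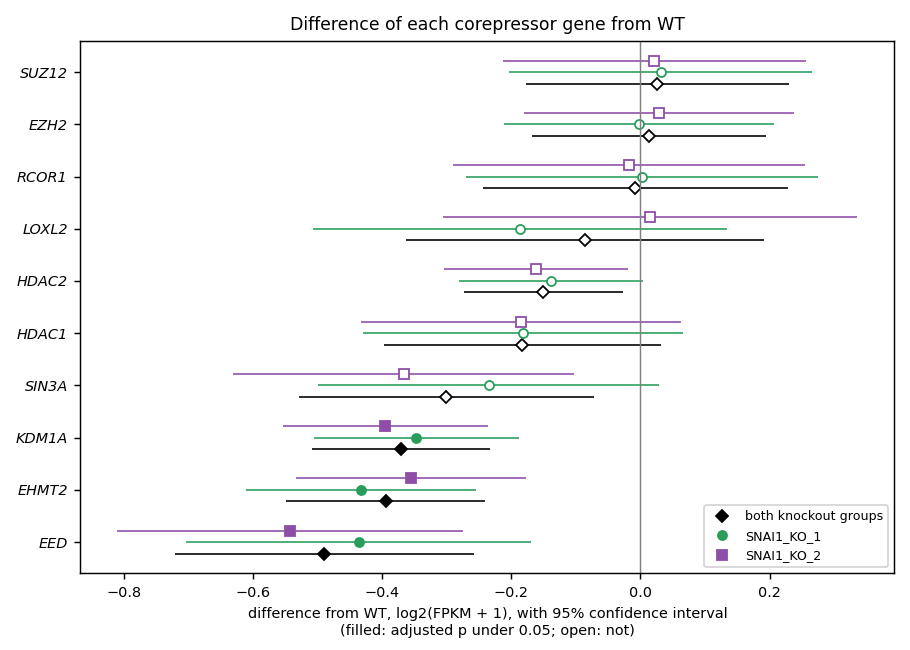
Difference of each corepressor gene from WT on log2(FPKM + 1) (horizontal axis), with 95% confidence intervals from limma, for both knockout groups (black), SNAI1_KO_1 (green) and SNAI1_KO_2 (purple); filled symbols have an adjusted p under 0.05. *EED*, *EHMT2* and *KDM1A* are filled throughout, and the intervals of *RCOR1*, *EZH2*, *SUZ12*, *LOXL2* and *HDAC1* span 0.

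The LSD1-CoREST pair was examined first, because it binds the SNAG domain directly. *KDM1A*, the demethylase of methylated H3K4, was at 106.0 FPKM in WT against 78.8 (SNAI1_KO_1) and 79.9 (SNAI1_KO_2) within the first table, and at 91.8, 75.9 and 70.0 in the second. All 4 knockout values were lower than both WT values, at 74.4% to 82.7% of WT in the same table. Adjusted p-values were 0.00686 over both groups and, taken alone, 0.0169 (SNAI1_KO_1) and 0.0106 (SNAI1_KO_2). Without the first WT library the difference was -0.33 with an adjusted p of 0.0728, and without the table as a block the adjusted p was 0.188. *RCOR1*, which joins LSD1 to chromatin, was at 9.34 FPKM in WT against 9.74 (SNAI1_KO_1) and 8.67 (SNAI1_KO_2) within the first table, and at 8.53, 8.19 and 8.94 in the second. The groups overlapped, and the difference was -0.01 with a 95% confidence interval from -0.24 to 0.23 and an adjusted p of 0.957. A change of any size inside this interval remains possible.

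The low level of *RCOR1* has to be seen within its family. *RCOR2* and *RCOR3* encode related CoREST scaffolds, and *RCOR2* held 67.1% and 68.5% of the summed FPKM of the family in the WT libraries, where *RCOR1* held 10.6% and 8.57%. *RCOR2* was at 59.3 FPKM in WT against 33.2 (SNAI1_KO_1) and 33.7 (SNAI1_KO_2) within the first table, and at 68.2, 39.2 and 39.7 in the second. It fell to 56.0% to 58.2% of WT in the 4 knockout libraries (log2 -0.79 ± 0.052, SE, adjusted p = 0.000634). This call held under each alternative fit, the one without the block included (adjusted p = 0.0360), and not with the added limit of a log2 difference of at least 1. *RCOR3* was at 19.7, 14.3 and 11.4 FPKM in the first table and at 22.8, 11.9 and 12.9 in the second. It fell by log2 -0.71 ± 0.12 (adjusted p = 0.00934). The *RCOR3* call was lost without either WT library (adjusted p = 0.0524 and 0.0994), without the block (0.0507) and with no filter on low values (0.0701). The summed FPKM of the family was 88.4 in WT and 57.2 and 53.8 in the knockout libraries of the first table. In the second it was 99.5, 59.3 and 61.5. *KDM1B*, the other member of the LSD family, was near 1 FPKM in all libraries (1.14 to 1.42) and did not pass the threshold (log2 difference -0.08, adjusted p = 0.674).

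The deacetylase arm was analysed next. *HDAC1*, a class I histone deacetylase, was at 69.3 FPKM in WT against 56.0 (SNAI1_KO_1) and 53.4 (SNAI1_KO_2) within the first table, and at 73.4, 70.3 and 73.4 in the second. Both knockout libraries were lower than WT in the first table, and in the second they were at or near it. The log2 difference of -0.18 (95% confidence interval -0.40 to 0.03) did not pass (adjusted p = 0.161). It was -0.03 without the first WT library and -0.34 without the second, and -0.12 without the first SNAI1_KO_2 library. *HDAC2*, its close paralog, was at 265.6, 235.5 and 245.3 FPKM in the first table and at 200.7, 186.7 and 173.2 in the second. All 4 knockout values lay below WT of the same table, at 86.3% to 93.0%, and the ranges of the groups overlapped across tables. The difference of -0.15 ± 0.049 (SE) had an unadjusted p of 0.0254 and an adjusted p of 0.0703, and it passed under quantile normalization (0.0353) and with both knockout groups taken as 1 group (0.0411), whereas it was 0.797 without the block and 0.0781 to 0.271 with 1 library left out.

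*SIN3A*, the scaffold that holds HDAC1 and HDAC2 in the SIN3 complex, was at 25.8 FPKM in WT against 21.2 (SNAI1_KO_1) and 17.5 (SNAI1_KO_2) within the first table, and at 25.2, 21.9 and 21.9 in the second. Each knockout library was below both WT libraries, at 67.7% to 86.7% of WT in its table. The log2 difference of -0.30 ± 0.091 (SE) fell short of the threshold, with an adjusted p of 0.0571. It passed when genes under a mean of 5 FPKM were dropped (0.0460), with both knockout groups as 1 group (0.0487) and without the SNAI1_KO_2 library of the second table (0.0437). Without the first WT library it was -0.20 (adjusted p = 0.330), and without the block the adjusted p was 0.325. Its paralog *SIN3B* was higher than WT in all 4 within-table differences, at 23.8, 27.4 and 27.3 FPKM in the first table and at 42.1, 47.0 and 45.9 in the second. That difference of 0.17 had an adjusted p of 0.0773 and passed under median-ratio scaling (0.0426) and with both knockout groups as 1 group (0.0456), and was 0.876 without the block. Of the other class I deacetylases, *HDAC3*, the enzyme of the NCOR complexes, was lower by log2 -0.23 with an adjusted p of 0.0318, which rose to between 0.0694 and 0.168 without any 1 of the 6 libraries, and to between 0.0627 and 0.377 without the block, the filter or the trend or under median-ratio scaling. *HDAC8* had a difference of -0.02 (adjusted p = 0.848).

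Of the 3 PRC2 core genes, *EED* was called and *EZH2* and *SUZ12* were not. Beside the background of 31.3%, this count is no result about PRC2. *EZH2*, the catalytic subunit, was at 26.2 FPKM in WT against 26.6 (SNAI1_KO_1) and 28.9 (SNAI1_KO_2) within the first table, and at 26.5, 26.0 and 25.0 in the second. The knockout values lay on both sides of WT, with a log2 difference of 0.01, a 95% confidence interval from -0.17 to 0.19 and an adjusted p of 0.905. *SUZ12*, the subunit that anchors the complex, was at 12.6, 13.2 and 13.7 FPKM in the first table and at 10.8, 10.8 and 10.2 in the second, a difference of 0.03 with an interval from -0.18 to 0.23 (adjusted p = 0.830). The *SUZ12* level is uncertain, since the pseudogene *SUZ12P1*, a near copy, was itself listed at 11.6 to 15.6 FPKM and the counting could split reads between them. The pseudogene *EZH2P1* was listed at 0 FPKM throughout the first table, and in the second at 2.50 (WT), 3.23 (SNAI1_KO_1) and 0.831 (SNAI1_KO_2).

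*EED* was at 16.6 FPKM in WT against 11.3 (SNAI1_KO_1) and 11.6 (SNAI1_KO_2) within the first table, and at 13.5, 10.4 and 8.56 in the second. The 4 knockout values were below both WT values, at 63.2% to 76.9% of WT in the same table. Adjusted p-values were 0.0144 over both groups and, taken alone, 0.0385 (SNAI1_KO_1) and 0.0193 (SNAI1_KO_2). The call was not kept under several alternatives: the adjusted p was 0.110 and 0.102 without the first or second WT library, 0.0549 without the first SNAI1_KO_1 library, 0.0530 without the second SNAI1_KO_2 library, 0.0668 with no filter on low values and 0.197 without the block. The log2 difference stayed between -0.55 and -0.43 when any 1 library was left out. On the same strand, *EED* and the microRNA gene *MIR6755* share an exon stretch of 66 nucleotides.

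Levels of the PRC2 genes can also be set against each other as a ratio inside each library. EED to EZH2 was 0.635 in WT, 0.424 in SNAI1_KO_1 and 0.403 in SNAI1_KO_2 within the first table, and then 0.512, 0.400 and 0.342 in the second. EED to SUZ12 went from 1.32 to 0.854 and 0.849, and from 1.26 to 0.966 and 0.839. In an exact permutation test within tables, two-sided, both ratios gave p = 0.111, which is the smallest that 9 choices of WT libraries allow, so no ratio here could reach 0.05. EZH2 to SUZ12 differed little (log2 -0.01, exact p = 0.667), from 2.01 to 2.11 in the first table and from 2.42 to 2.46 in the second. Of 10 ratios computed, 7 reached the smallest p, which is 0.159 after Benjamini-Hochberg adjustment. *EZH1*, the other PRC2 catalytic subunit, held 18.5% and 13.2% of the summed EZH1 and EZH2 FPKM in WT and 17.6% to 20.3% in the knockout libraries, and did not pass (log2 0.26, adjusted p = 0.160).

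*EHMT2*, which encodes the H3K9 methyltransferase G9a, was at 27.1 FPKM in WT against 19.8 (SNAI1_KO_1) and 20.4 (SNAI1_KO_2) within the first table, and at 33.7, 24.7 and 26.8 in the second. The highest knockout value was just under the lower WT value, and within tables the knockout libraries stood at 73.2% to 79.5% of WT. Adjusted p-values were 0.00812 over both groups and, taken alone, 0.0124 (SNAI1_KO_1) and 0.0204 (SNAI1_KO_2). It was 0.0728 and 0.0631 without the WT library of the first or second table, and 0.328 without the block. *EHMT1*, which encodes GLP, the partner of G9a in an active heterodimer, was at 56.1, 44.6 and 45.5 FPKM in the first table and at 68.7, 59.5 and 58.0 in the second. It fell as well (log2 -0.27 ± 0.054, adjusted p = 0.0179), a call kept without the SNAI1_KO_1 library of the second table and lost without any 1 of the other 5 libraries (adjusted p from 0.0628 to 0.125), and without the filter, the trend or the block (0.0538, 0.0576 and 0.547). *EHMT1* made up 67.1% to 70.6% of the summed level of the pair in every library. The antisense gene *EHMT2-AS1* shares 592 exon bases with *EHMT2*, and the library kit does not keep strand, so reads within these bases cannot be assigned.

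*LOXL2*, a lysyl oxidase family member reported to bind and stabilize SNAI1, was at 19.8 FPKM in WT against 16.5 (SNAI1_KO_1) and 16.7 (SNAI1_KO_2) within the first table, and at 52.5, 48.1 and 63.0 in the second. The knockout libraries were lower than WT in 3 of 4 differences and higher in 1, and the log2 difference of -0.09 (95% confidence interval -0.36 to 0.19) did not pass (adjusted p = 0.591). Its difference between tables was larger than any difference between its groups. *LOXL3*, the family member most similar to *LOXL2* and also described as a partner of SNAI1, was at 5.28 FPKM in WT against 13.6 (SNAI1_KO_1) and 18.3 (SNAI1_KO_2) within the first table, and at 5.35, 16.2 and 16.0 in the second. All 4 knockout libraries stood well above both WT libraries, at 258% to 347% of WT. The log2 difference of 1.42 ± 0.11 (SE) had an adjusted p of 0.000888 and passed under each alternative run, with adjusted p up to 0.0244.

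Exons of *LOXL3* and *HTRA2*, a mitochondrial protease gene on the opposite strand, overlap by 625 bases, and without strand reads in them cannot be assigned. *HTRA2* went the other way, from 18.0 FPKM in WT to 15.2 and 12.5 in the knockout libraries of the first table and from 19.5 to 13.6 and 11.8 in the second. *LOX*, the founding member that crosslinks collagen, was at 1.85, 1.08 and 0.865 FPKM in the first table and at 2.15, 0.691 and 0.831 in the second. It fell (log2 -0.69, adjusted p = 0.0294), a call kept when the first SNAI1_KO_1 library was left out and lost without any 1 of the other 5 libraries (0.0707 to 0.179), and without the filter or the block (0.102 and 0.0890). *LOXL1* did not pass (log2 -0.15, adjusted p = 0.403). *LOXL4*, under 0.5 FPKM in every library, was not tested. Within the summed family, *LOXL3* held 16.6% in WT, 38.3% in SNAI1_KO_1 and 46.0% in SNAI1_KO_2 within the first table, and then 7.84%, 22.1% and 18.1% in the second.

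**Figure D3:**
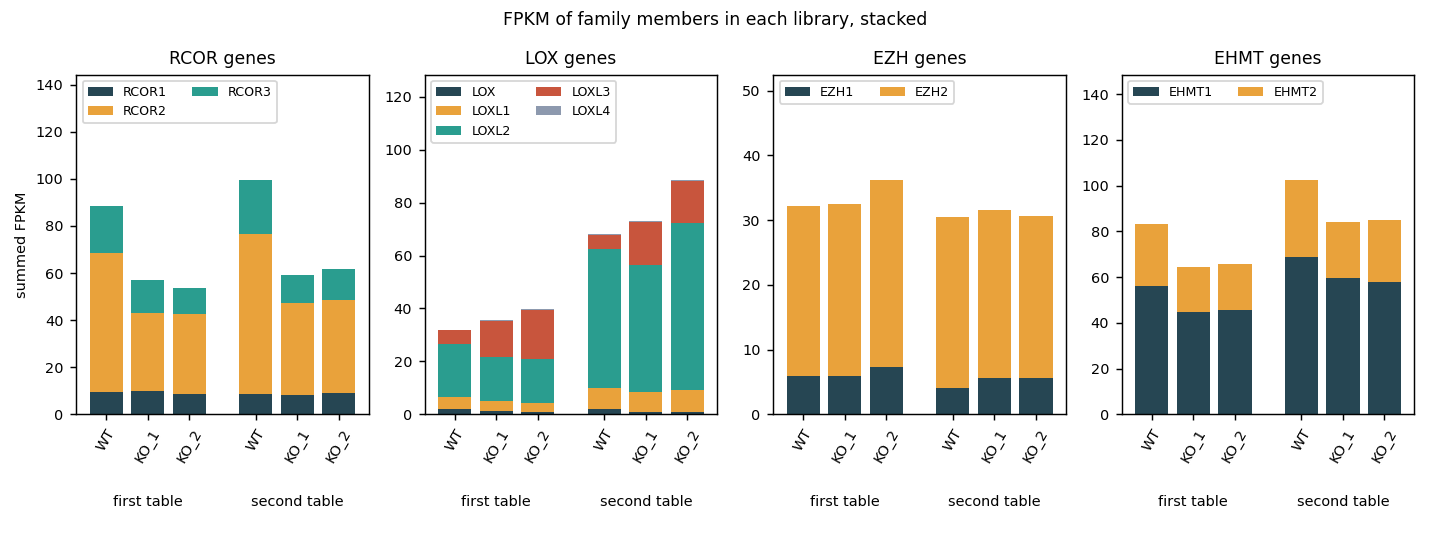
Summed FPKM (vertical axis, from 0) of the RCOR, LOX, EZH and EHMT genes in each library, stacked by gene, for WT, SNAI1_KO_1 and SNAI1_KO_2 in the first and the second table. The RCOR sum is 88.4 and 99.5 in WT and 53.8 to 61.5 in the knockout libraries, mostly through *RCOR2*, while *LOXL3* widens in all 4 knockout libraries.

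The closest relatives thus differed in direction. Of 12 paralogs of the members, 11 were tested and 6 were called, 5 lower (*RCOR2*, *RCOR3*, *HDAC3*, *EHMT1* and *LOX*) and 1 higher (*LOXL3*), with a median log2 difference of -0.15. Over all genes tested, 31.3% were called, 15.4% lower and 15.8% higher. Taken alone, SNAI1_KO_1 called 4 paralogs and SNAI1_KO_2 called 6, from contrasts that share the WT libraries. At a pseudocount of 1, *RCOR2*, *RCOR3*, *LOX* and *LOXL3* differed from WT by more than any of the 10 members did. For *LOX*, which is near the floor, this depends on the scale: with a pseudocount of 10 it was at -0.14, beside -0.29 for *EED*. *EED*, the member with the largest difference at a pseudocount of 1, was followed most closely across the 6 libraries, after removing the table means, by *L1CAM*, *RTL8B* and *ATF6B* (Pearson r = 0.9986, 0.9986 and 0.9985). These r describe 6 libraries that share their tables, and no p is given.

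To ask whether SNAI1_KO_1 and SNAI1_KO_2 differed in these genes, the knockout groups were set against each other. By limma, 0 of 10 members passed and 0 had an unadjusted p under 0.05. The smallest adjusted p was 0.999632, and differences lay between -0.13 and 0.20. The background was 0%: of all 13909 genes, 0 were called and 521 had an unadjusted p under 0.05. The 95% confidence intervals of this difference ran from -0.21 to 0.11 for *KDM1A*, from -0.37 to 0.16 for *EED* and from -0.10 to 0.26 for *EHMT2*. A difference of any size inside these bounds remains possible. Among the members, *LOXL2* had the largest estimate, at 0.20 (-0.12 to 0.52).

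The complexes around the members were then described from 13 lists, the paralogs among them, chosen by function with earlier results of these data known. They held 112 genes found in both tables, of which 106 were tested and 43 were called (40.6%), 10 higher and 33 lower. The background was 31.3%, with 15.8% higher and 15.4% lower. Their median log2 difference was -0.14, that of all genes tested -0.05. These shares describe the lists, and no test of a list was made. Without the table as a block 5 of the 106 were called, and with no filter on low values 15.

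Among 6 other subunits of the CoREST complex, 2 were called, both lower: *ZMYM3*, a zinc-finger subunit (log2 -0.36, adjusted p = 0.0147), and *HMG20B*, an HMG-box subunit (-0.32, 0.0216). Each of these calls was lost without either WT library and with 3 of the 4 knockout libraries left out singly, at adjusted p up to 0.116 and 0.156. Of 14 other SIN3 complex subunits, 4 were called, 3 lower and 1 higher. *SAP30* was at 12.1, 6.40 and 6.42 FPKM in the first table and at 9.31, 6.31 and 4.51 in the second (log2 -0.76, adjusted p = 0.00789, and 0.0864 and 0.0647 without the first or second WT library). Its relative *SAP30L* was lower by log2 -0.44 (0.0315) and the histone-binding subunit *RBBP7*, which PRC2 also holds, by -0.31 (0.0174). The subunit that rose, *FAM60A* (0.22, 0.0391), is named after its values were seen. The *SAP30L* call was lost without any 1 library except the SNAI1_KO_2 library of the second table, and that of *RBBP7* without either WT library, the first SNAI1_KO_1 library or the second SNAI1_KO_2 library (adjusted p up to 0.214 and 0.117). Of 10 NuRD subunits, the remodelling and deacetylase complex that also holds HDAC1 and HDAC2, 6 were called and all 6 were lower. Beside these counts, 31.3% of all genes tested were called, 15.4% lower, and no list was tested. *CHD4* (-0.25, 0.0149), *MTA1* (-0.20, 0.0245) and *MTA2* (-0.28, 0.0208) are named after their values were seen and were not run under the alternatives. *CHD3*, a remodelling ATPase, went from 26.1 FPKM to 14.9 and 14.1 in the first table and from 45.6 to 20.3 and 22.5 in the second (log2 -0.93 ± 0.092, adjusted p = 0.00200), a call lost without the block (0.155) and, by its size, under the limit of a log2 difference of at least 1, and kept with each library left out. The zinc-finger subunit *GATAD2A* and the methyl-CpG-binding family member *MBD3* were lower by -0.31 (0.0230) and -0.30 (0.0141). Both calls were lost without either WT library (0.167 and 0.0620 for *GATAD2A*, 0.0626 and 0.117 for *MBD3*) and without the first SNAI1_KO_2 library (0.0525 and 0.0577). That of *GATAD2A* was also lost without either SNAI1_KO_1 library (0.0694 and 0.0796), and that of *MBD3* without the second SNAI1_KO_2 library (0.0508).

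Among 8 other PRC2 genes, 3 were called, beside a background of 31.3% over all genes tested. *PHF19*, which guides PRC2 to chromatin, rose from 4.002 FPKM to 11.2 and 10.1 in the first table and from 5.38 to 8.22 and 11.1 in the second (log2 0.97, adjusted p = 0.0111). Its relative *PHF1* fell (-0.43, 0.0130), as did *RBBP7*. The *PHF19* call was lost without the first WT library (0.0979) and without the second SNAI1_KO_2 library (0.0531), and that of *PHF1* without either WT library (0.108 and 0.0604) and without the second SNAI1_KO_2 library (0.0567). Under settings other than leaving out a library, the adjusted p reached 0.0843 for *PHF19* and 0.576 for *PHF1*. PRC1, the Polycomb complex that ubiquitinates H2A, had 9 of 18 genes called, 4 higher and 5 lower, beside the same background of 31.3%. *PCGF5*, a variant PRC1 subunit, was at 1.47 FPKM in WT and at 11.9 and 12.8 in the knockout libraries of the first table, and at 1.29, 12.03 and 11.5 in the second. It was 8.12 to 9.35 times WT (log2 2.46 ± 0.093, adjusted p = 0.000183), the largest difference of the 106 genes, and passed under each alternative run. *PHC1* rose to 2.00 to 2.24 times WT (log2 1.04, adjusted p = 0.000341, and 0.118 without the block). *BMI1*, the canonical PRC1 subunit PCGF4, fell from 7.85 FPKM to 3.86 and 3.53 in the first table and from 5.47 to 2.83 and 2.93 in the second. That was a log2 difference of -0.83 (adjusted p = 0.00499). The *BMI1* call was lost without the first WT library, and its adjusted p reached 0.0792 under settings other than leaving out a library.

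Of 8 other H3K9 methylation genes, 2 were called lower, *WIZ*, a zinc-finger partner of G9a and GLP (log2 -0.64, adjusted p = 0.00706, and 0.0548 without the second WT library), and *SUV39H1* (-0.40, 0.0489), whose call was lost without any 1 library (0.0700 to 0.308). The 7 demethylases that remove H3K27 or H3K9 methylation had 5 called, 2 higher and 3 lower, beside a background of 31.3% over all genes tested. *KDM6B*, an H3K27 demethylase, fell from 6.89 FPKM to 3.02 and 2.41 in the first table and from 8.62 to 2.90 and 3.09 in the second (log2 -1.18 ± 0.12, adjusted p = 0.00226, passing under each alternative run). *KDM6A*, with the same substrate, rose by 0.48 (0.00932), and *KDM3B*, an H3K9 demethylase, was lower by -0.44 (0.00917). The other called genes, *KDM4A* (0.26, 0.0408) and *KDM4B* (-0.35, 0.0238), are named after their values were seen. The *KDM6A* call was lost without either WT library (0.0880 and 0.0700) and the *KDM3B* call without the first (0.0846). Under settings other than leaving out a library, the adjusted p reached 0.724 for *WIZ*, 0.225 for *SUV39H1*, 0.235 for *KDM6A* and 0.144 for *KDM3B*. No DNA methyltransferase was called, with differences from -0.06 to 0.01 over 3 genes by limma and 0 with an unadjusted p under 0.05.

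**Figure D4:**
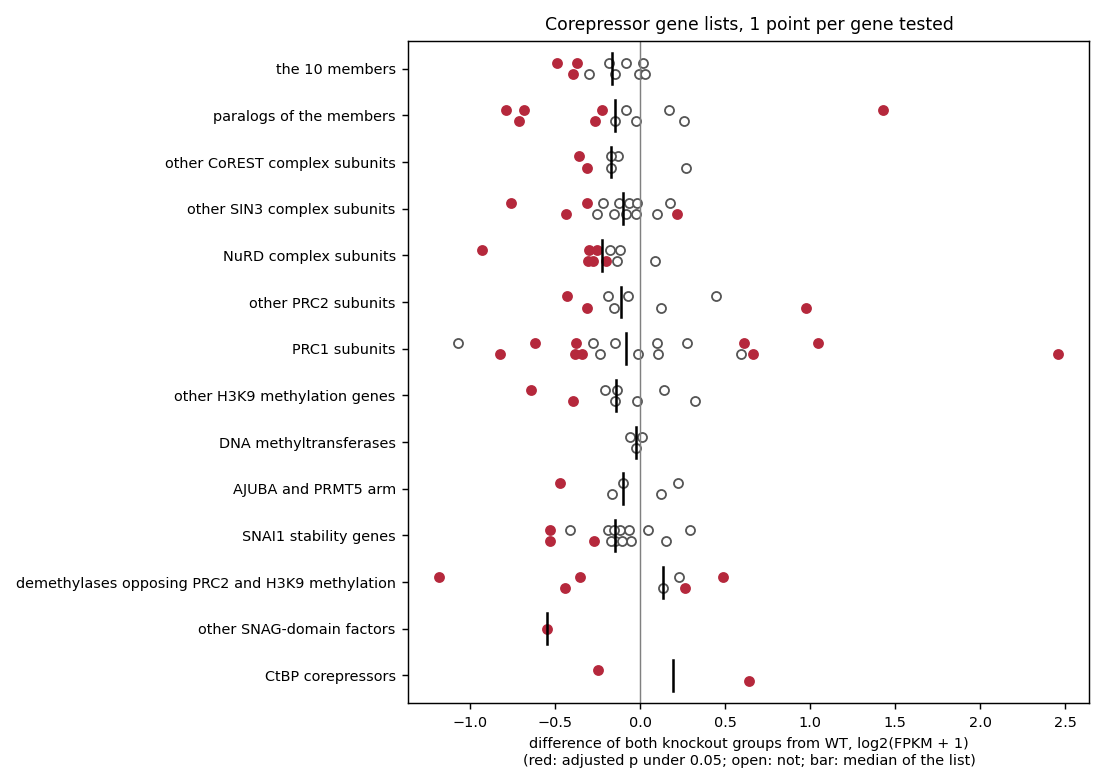
Difference of both knockout groups from WT on log2(FPKM + 1) (horizontal axis), 1 point per gene tested, for the 10 members and the 13 lists around them; red points have an adjusted p under 0.05 and bars mark list medians. The members lie between -0.49 and 0.03, *PCGF5* at 2.46 stands farthest right, and the 6 called NuRD genes lie left of 0.

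Further partners of SNAI1 were examined, with the background of 31.3% as above. In the arm of AJUBA, which bridges SNAI1 to the arginine methyltransferase PRMT5, 1 of 5 genes was called: *PRMT5* was at 91.6, 61.7 and 61.5 FPKM in the first table and at 77.4, 55.8 and 62.6 in the second (log2 -0.47, adjusted p = 0.00651, and 0.0659 without the first WT library). Of 15 genes that set the stability or location of SNAI1 protein, 3 were called lower. They were *CTDSP1*, a small phosphatase that acts on SNAI1 (-0.53, 0.00375), *PAK1*, a kinase that phosphorylates it (-0.53, 0.0127), and *FBXW11*, a ubiquitin ligase subunit (-0.27, 0.0470). Under settings other than leaving out a library, the adjusted p reached 0.107 for *PRMT5*, 0.0606 for *CTDSP1*, 0.187 for *PAK1* and 0.420 for *FBXW11*. The *PAK1* call was lost without either WT library (0.118 and 0.0710) and without the second SNAI1_KO_1 library (just above 0.05), and the *FBXW11* call without any 1 library (0.104 to 0.250). *CTBP2*, a corepressor used by other repressors of epithelial genes, rose to 1.53 to 1.61 times WT (log2 0.64, adjusted p = 0.000810, and 0.292 without the block), whereas *CTBP1* was lower by -0.25 (0.0141), a call lost without any 1 library but the second SNAI1_KO_1 library (0.0534 to 0.106). Of 6 factors found with the same SNAG domain, 5 lay under the filter, and *SNAI2* was called lower (-0.55, 0.0262), a call lost without either WT library (0.197 and 0.101) and without either SNAI1_KO_2 library (0.0536 and 0.0883).

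Other gene groups were counted in the same comparison as the members. The background was 31.3% called, 15.4% lower and 15.8% higher, and no list was tested. Of 12 proliferation markers, 7 were called lower and 0 higher, with a summed FPKM of 974.7 and 891.7 in WT, 857.0 and 791.2 in SNAI1_KO_1, and 859.5 and 772.9 in SNAI1_KO_2. Of the 12 log2 differences, 9 were negative and 3 positive, between -0.42 and 0.10. *CDK1*, the mitotic kinase, was at -0.41 and the replication gene *MCM5* at 0.10. Of 8 pluripotent cell markers, 3 were called higher, *POU5F1*, *NANOG* and *DPPA4*, and their sum went from 1230 and 1263 FPKM in WT to 1462 to 1649 in the knockout libraries. Of 9 mesoderm markers, 7 were called lower and 1 higher, the transcription factor *T* (Brachyury), with sums of 1776 and 1725 in WT and 1141 to 1224 in the knockout libraries. Of 5 endoderm markers, 3 were lower and 1, *SOX17*, higher, with sums of 250.5 and 589.1 in WT and 237.6 to 537.8 in the knockout libraries. Of 7 amnion and surface ectoderm markers, 3 were tested and called, *TFAP2A* and *GABRP* higher and *GATA3* lower, with sums of 28.6 and 44.2 in WT and 28.9 to 50.6 in the knockout libraries. Of 5 neural ectoderm markers, 1 was tested and 0 were called, with sums of 81.5 and 96.1 in WT and 50.5 to 74.2 in the knockout libraries. *TFAP2B* and *SOX1* were listed at 0 in both WT libraries. The part of these differences in cell state or proliferation in the corepressor values was not tested.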

How the data were processed

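RNA-seq libraries of 6 samples were analysed from 2 tables of FPKM values that the authors deposited per gene symbol (fragments scaled by transcript length and by mapped fragments). The second table names the unit in a heading line. The submitters' processing notes name hg19, BWA, Bowtie and RSEM, with no role, order or version. Libraries were made with the Illumina TruSeq RNA kit from 2 ug of total RNA. The study names BGI and Novogene for its RNA-seq as a whole and does not say which sequenced these libraries. Column names show the group only, and 0 per-sample columns went unused.

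Repeated symbols (94 and 340) were dropped, and 13909 genes averaging 1 FPKM or more were tested on log2(FPKM + 1), a scale that understates changes of low genes. A mean per group and the table as a block were fitted with limma 3.58.1 (R 4.3.3) using a mean-variance trend, with 2 residual degrees of freedom and 3.34 from the prior. Two-sided p-values were Benjamini-Hochberg adjusted across the 13909 genes, and 0.05 was the threshold. Libraries of the same table deviated together (r = 0.616, 0.666 and 0.676 across genes), which is the pairing used, and 3 groups shared it. Ratios used an exact permutation test within tables.

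The 10 members and all gene lists were chosen with earlier results of these data known. Named are the members, SNAI1, the paralogs, up to 3 called genes per other list with the largest absolute difference, at most 3 markers per marker list, and the 3 genes most like *EED*. After the values were seen, *HTRA2*, *SUZ12P1*, *EZH2P1* and *EHMT2-AS1* were added for overlap with named genes or as copies of them. The alternatives tried were pseudocounts of 0.1 and 10, a fit without the block, no filter or one at 5 FPKM, quantile and median-ratio scaling, division by the library sum, no trend, the knockout groups as 1 group, a log2 difference of at least 1, and leaving out each library. The model was tested on simulated data. Overlapping genes came from GENCODE 29. FPKM carries no read totals, so no counting interval is given, and no count model was used.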

Additional observations from a re-analysis of the deposited data

How the results depend on the processing

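The count of 3 called members moved by at most 1 in the contrast of both knockout groups under pseudocounts of 0.1 and 10, other scalings, no filter, the stricter filter and no trend. Without the replicate block (the table) 0 members, 5 other corepressor genes and 1065 genes in all were called, and each knockout group alone called 0 members. A log2 difference of at least 1 gave 0 members in each contrast, 4 other corepressor genes and 998 genes, by its construction. With both knockout groups as 1 group, 5 members were called. With no filter, 15 other corepressor genes and 2139 genes were called, with 1 member in SNAI1_KO_1 and 0 in SNAI1_KO_2. Without the trend, SNAI1_KO_1 called 1 member. Leaving out 1 library gave 0 to 3 members for both groups (0 without the first WT library, *KDM1A* alone without the second), 0 to 2 for each knockout group, 13 to 31 other corepressor genes and 1728 to 2840 genes. The share of calls that were higher was 50.6%, 59.1% under median-ratio scaling and 71.9% without the block.

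Directions turned only for differences that were never called: *RCOR1* (0.0346 under median-ratio scaling, -0.0610 to 0.0454 with 1 library left out), *HDAC8* (0.0186, and -0.0710 to 0.0233), *EZH2* (-0.0502 to 0.0765), *SUZ12* (-0.0352 to 0.0878), *LOXL2* (-0.239 to 0.0674) and *LOXL1* (-0.315 to 0.0144). Of 160 alternatives for single members, 133 kept direction and side of the threshold, 11 lost the call, 5 gained it and 11 turned direction. The cause was not tested. With a pseudocount of 10 in place of 1, differences shrank by construction, to -0.29 for *EED*, -0.14 for *LOX*, 0.76 for *LOXL3* and 0.96 for *PCGF5*. With 2 libraries a group, absolute depth unknown and a median standard error of 0.10, small differences were not detectable.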
